A study of Mus musculus with 4 samples.

Results

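Of the 28851 genes represented on the Illumina MouseWG-6 v2.0 BeadChip, 10 genes of TGF-beta and BMP signalling were examined: the ligands Bmp4, Bmp7, Tgfb1 and Tgfb2, the receptors Bmpr1a and Tgfbr2, the target genes Id1, Id2 and Id3, and the inhibitor Smad7. They were chosen by symbol, and every probe annotated with one of these symbols was taken, which gave 17 of 45263 probes. RNA of mouse lenses at postnatal day 6 was hybridised to 4 arrays, 2 of Celf1 cKO lenses (cKO A and cKO B) and 2 of Control lenses (Control A and Control B), with 1 lens for each array. Celf1 encodes an RNA-binding protein that acts on the splicing, stability and translation of its target mRNAs. The cKO mice carried a germline Celf1 lacZ knock-in allele, a Celf1 allele with loxP sites around exon 5, and Pax6GFPCre, which drives Cre from the lens placode onward and also in the pancreatic lineage. The Control mice were Celf1lacZKI/+, so that both groups carried 1 lacZ knock-in allele, and no Cre or floxed allele is given for the Control. Cells of a lens in which Cre did not act, and cells of other lineages attached to it, keep the floxed allele intact. The paper describes the mice of the cKO breeding scheme as mixed between C57BL/6 and FVB. Sex and litter are not given.

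TGF-beta and BMP ligands are secreted dimers that bind pairs of type I and type II serine/threonine kinase receptors. The receptors phosphorylate SMAD proteins, SMAD2 and SMAD3 in the TGF-beta branch and SMAD1, SMAD5 and SMAD9 in the BMP branch, which enter the nucleus with SMAD4 and act on target genes. In the eye, BMP4 and BMP7 are needed for formation of the lens, and an excess of active TGF-beta drives lens epithelial cells toward a myofibroblast-like state seen in some cataracts.

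Tgfbr2 was called elevated in cKO lenses, by 1 of its 4 probes. That probe was above background on the cKO arrays alone. It entered the test through them, so that its positive difference is in part fixed by selection. Tgfbr2 was the 1 member called of the 9 that could be tested, where 11.6% of all genes tested were called and 6.01% were elevated. The call was not kept under every processing, as given below. Bmp4 had the largest difference of the 9 in the same direction but also the widest spread between its cKO lenses, and it did not pass the test. Id2 had the largest difference in the other direction and did not pass either. The remaining 6 tested members differed by less than 0.58 on the log2 scale, which is the fold threshold used here, and Smad7 was above background on no array.

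The promoters of the members with the largest differences are shown first, since these are the sequences from which the transcripts in question start. Each is the 250 bases before the RefSeq transcription start in mouse build GRCm38.p6, 5′ to 3′ on the strand of the gene. For Tgfbr2 this is chr9:116175364-116175613, for Bmp4 chr14:46390670-46390919 and for Id2 chr12:25096093-25096342, all on the minus strand, and for Id3, printed beside Id2 as another BMP target, chr4:136143572-136143821 on the plus strand. Capitals mark matches on either strand to 5 short motifs, CAGAC (a SMAD element), GGCGCC (a palindromic element bound by SMAD1 and SMAD5), CCAAT (bound by NF-Y), TATAA (the core of a TATA box) and GGGCGG (a GC box, bound by SP1).
Tgfbr2: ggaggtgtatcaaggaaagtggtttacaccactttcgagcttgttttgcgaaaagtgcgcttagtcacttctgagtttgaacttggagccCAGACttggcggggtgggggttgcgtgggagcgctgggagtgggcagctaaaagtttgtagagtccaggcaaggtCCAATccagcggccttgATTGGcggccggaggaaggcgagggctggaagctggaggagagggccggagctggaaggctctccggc
Bmp4: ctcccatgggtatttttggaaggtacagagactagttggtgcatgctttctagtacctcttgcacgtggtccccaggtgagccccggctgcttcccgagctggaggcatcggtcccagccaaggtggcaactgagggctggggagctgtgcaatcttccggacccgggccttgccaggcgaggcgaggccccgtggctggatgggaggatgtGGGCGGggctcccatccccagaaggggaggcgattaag
Id2: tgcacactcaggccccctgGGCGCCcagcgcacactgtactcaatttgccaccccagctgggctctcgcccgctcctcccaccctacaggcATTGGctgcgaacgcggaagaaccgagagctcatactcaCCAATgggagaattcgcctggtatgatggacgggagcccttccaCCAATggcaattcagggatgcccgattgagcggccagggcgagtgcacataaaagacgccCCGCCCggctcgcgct
Id3: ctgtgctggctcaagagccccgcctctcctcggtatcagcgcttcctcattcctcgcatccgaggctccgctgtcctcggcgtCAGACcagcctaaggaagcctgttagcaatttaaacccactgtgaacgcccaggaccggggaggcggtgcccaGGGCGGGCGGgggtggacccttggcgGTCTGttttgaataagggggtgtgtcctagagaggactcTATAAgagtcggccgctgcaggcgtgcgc

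CAGAC occurred in the Tgfbr2 window, in which its first base lies 160 bases before the start, and at a pair of places in the Id3 window. It was found in 42.2% of all 32851 RefSeq promoter windows of this length. The Id2 window held GGCGCC 231 bases before the start, a motif present in 9.59% of all windows. CCAAT, present in 33.8%, stood in the Tgfbr2 and Id2 windows, TATAA, present in 22.8%, only in the Id3 window among these 4, and GGGCGG, present in 32.7%, in those of Bmp4, Id2 and Id3. In the Id3 window the 2 GGGCGG matches overlap. The Bmp4 window held only the GC box, 38 bases before the start. Promoter windows were matched for 7 of the 10 members, and the others of these are Tgfb1, Tgfb2 and Bmpr1a. These matches describe letters in the window and not binding.

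The targeted gene was checked first. Celf1 was reduced in cKO lenses, with log2 signals of 7.45 and 6.95 on the cKO arrays against 8.71 and 8.55 on the Control arrays, which is -1.43 ± 0.19 (SE) as a log2 ratio of cKO over Control (adjusted p = 0.0098 by limma, and 0.0559 without Control B). The cKO arrays were brighter among well-expressed probes, with 16261 and 16925 probes detected against 14542 and 14180 on the Control arrays and 99th percentiles of unnormalized signal of 3209 and 3444 against 2158 and 1699. Their medians over all probes were 47.9 and 49.1 against 48.3 and 43.1, so that cKO A was not the brighter there. Xist, the RNA of the inactive X chromosome, was detected on both cKO arrays and on no Control array. Its signal was at least 6.09-fold higher in the cKO lenses. The Y-linked gene Ddx3y was lower there by a log2 fold change of -3.09 ± 0.55 (SE). Ddx3y was nevertheless detected on both cKO arrays, with log2 signals of 6.81 on cKO A and 4.83 on cKO B against 8.99 and 8.82 on the Control arrays. Xist thus separated the genotypes, while Ddx3y did so in level and not in detection. The sex of the cKO lenses is not clear from these genes. Genotype cannot be told apart from array brightness, or from the difference in these sex-linked genes, in any comparison below. Loss of Celf1 cannot be told apart from the presence of Pax6GFPCre, or from strain background, which is not given for each lens. Lens crystallins and membrane proteins marked the tissue, with 10 of 10 fiber markers detected on every array, while the epithelial marker Pax6 was detected on none and the photoreceptor genes Crx and Nrl on none. Across all 11517 genes tested, 1341 were called, 692 of them elevated and 649 reduced (5.64%). A gene was called at a Benjamini-Hochberg adjusted p under 0.05 over all genes, a log2 fold change beyond 0.58 in either direction and a log2 signal averaging above 4.6 over the arrays. Levels are log2 signals after background correction and quantile normalization, and they compare lenses for 1 gene, not genes with one another.

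Tgfbr2 encodes the type II receptor that binds TGF-beta ligands and starts the kinase cascade. Of its 4 probes, 1 was detected, at chr9:115997139-115997188 on the minus strand as the files give it, in a build they do not name. Its unnormalized signal was 83.5 ± 4.46 (SE over beads) on cKO A and 107.6 ± 3.76 on cKO B, against 49.9 ± 1.87 on Control A and 46.9 ± 4.54 on Control B. Both cKO lenses lay above both Control lenses, and neither Control lens was above background, with detection p-values of 0.169 and 0.0897 for the probe. The normalized log2 signals were 5.53 and 5.91 in the cKO lenses and 4.45 and 4.602 in the Control lenses. The log2 fold change was 1.20 ± 0.17 (SE, n = 2 per group) with a 95% confidence interval of 0.79 to 1.61 and an adjusted p = 0.0115 by limma. Since the Control level is only a bound, the Tgfbr2 signal of the cKO lenses is given as at least 1.98-fold higher. The bound sets the cKO mean against the lowest signal still above background on each Control array, or the probe's own signal where that was higher. The other 3 Tgfbr2 probes were above background on no array, and their unnormalized signals lay between 36.7 and 52.3. The difference rests on a single probe, which was retained because of the cKO arrays alone. The call was lost without Control B (1.40, adjusted p = 0.0559 by limma), and without either cKO lens the gene was detected on 1 array and was not tested.

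Bmp4 encodes a secreted BMP ligand. Its detected probe, 1 of 2, lies at chr14:47003601-47003650 on the minus strand in the same unnamed build. The unnormalized signal was 78.2 ± 4.65 (SE over beads) on cKO A and 218 ± 6.46 on cKO B, against 55.0 ± 3.13 on Control A and 39.5 ± 2.22 on Control B. Both cKO lenses were again higher than both Control lenses, and cKO B stood far above cKO A. The Control lenses did not pass the detection threshold, although Control A missed it narrowly with a detection p-value of 0.0502. On the log2 scale the signals were 5.40 and 7.11 against 4.72 and 4.28, an SD of 1.21 between the cKO lenses and of 0.31 between the Control lenses. The log2 fold change was 1.76 ± 0.49 (SE) with a 95% confidence interval of 0.59 to 2.92 and an adjusted p = 0.0604 by limma, which misses the threshold. As a bound, the cKO signal of Bmp4 was at least 2.86-fold higher, a value that falls to 1.58 with cKO A alone and rises to 5.16 with cKO B alone. The other Bmp4 probe was above background on no array, with its highest unnormalized signal, 51.5, on cKO B.

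**Figure D1:**
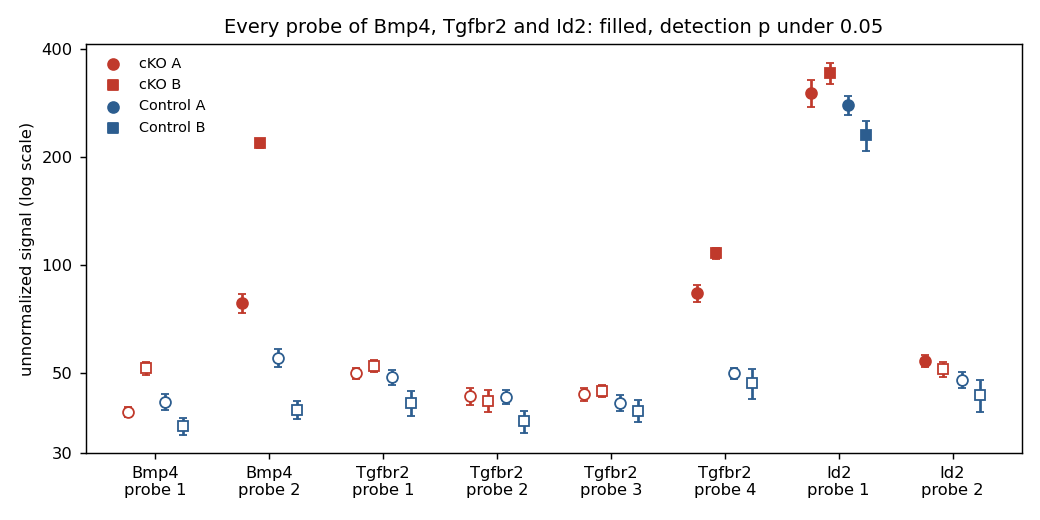
Unnormalized signal (y axis, log scale) of every probe of Bmp4, Tgfbr2 and Id2 on the 4 arrays, in the order of the files, with the standard error over beads as bars; filled symbols have a detection p under 0.05 and open symbols do not. The second Bmp4 probe and the fourth Tgfbr2 probe are filled on both cKO arrays and open on both Control arrays, and the first Id2 probe is filled on all 4.

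Tgfbr2 and Bmp4 were among 762 genes that were detected on both cKO arrays and on no Control array. Such genes enter the test because their cKO signal is high, so that a positive difference is in part fixed by their selection. Of the 762, 99 were called elevated (13%, against 6.01% of all genes). Some markers of other cell types were also higher in cKO lenses, and others were lower. Of the endothelial markers, 7 of 8 were tested, and 4 had positive log2 fold changes (51.1% of all genes did). The 2 elevated were Flt1 and Emcn (6.01% of all genes were elevated). The summed signal of the 7 was 478 and 479 in cKO lenses against 365 and 338 in Control lenses. Kdr and Tek, which also mark endothelium, had log2 fold changes of -0.59 and -0.26 and were not called. Of the macrophage markers, 4 of 8 were tested and 2 were elevated (6.01% of all genes were), Cd68 and C1qb. Like Tgfbr2 and Bmp4, these 2 entered the test through the cKO arrays alone. The summed signal of the 4 was 61.6 and 58.5 in cKO lenses against 36.0 and 39.9 in Control lenses. Csf1r and Aif1, detected on all 4 arrays, had log2 fold changes of -0.11 and -0.06 with overlapping groups. Adgre1 and Cd14 were detected on no array. The fibroblast markers Col1a1, Col1a2, Col3a1 and Lum were detected on no array. The part of these cells in the Tgfbr2 and Bmp4 values was not tested. In whole lenses, more cells of a type and more RNA per cell cannot be told apart.

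Bmp7, Tgfb1 and Tgfb2, the other ligands, did not pass the test. BMP7 is the second BMP needed for lens formation, and the log2 signals of its detected probe, 1 of 2, were 6.84 and 6.95 in cKO lenses against 6.41 and 7.06 in Control lenses. The groups overlapped, and the log2 fold change was 0.16 ± 0.22 (SE) with a 95% confidence interval of -0.36 to 0.68. Tgfb1, which encodes a latent ligand released from the matrix, had log2 signals of 6.01 and 6.63 against 5.89 and 5.81. Its groups did not overlap, but cKO A lay close to the Control lenses, and the log2 fold change was 0.47 ± 0.21 (SE) with an adjusted p = 0.182 by limma. Tgfb2, the TGF-beta ligand best known from the eye, had log2 signals of 6.94 and 7.48 against 7.64 and 7.58. Here both cKO lenses were lower than both Control lenses, cKO B only slightly so. The log2 fold change was -0.40 ± 0.20 (SE) with an adjusted p = 0.215 by limma.

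Bmpr1a encodes a type I receptor for BMP2 and BMP4, and it was measured by 2 detected probes. Their mean log2 signals were 6.04 and 6.42 in cKO lenses against 6.50 and 6.44 in Control lenses. The cKO B lens was only just below the Control lenses, and cKO A was lower. The probes had log2 fold changes of -0.18 and -0.30, with overlapping groups for each, so that the groups were apart only in the mean of the probes. The gene had -0.24 ± 0.17 (SE) with a 95% confidence interval of -0.64 to 0.16. The 2 receptors thus had differences of opposite sign, and the one in Bmpr1a did not pass the test.

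**Figure D2:**
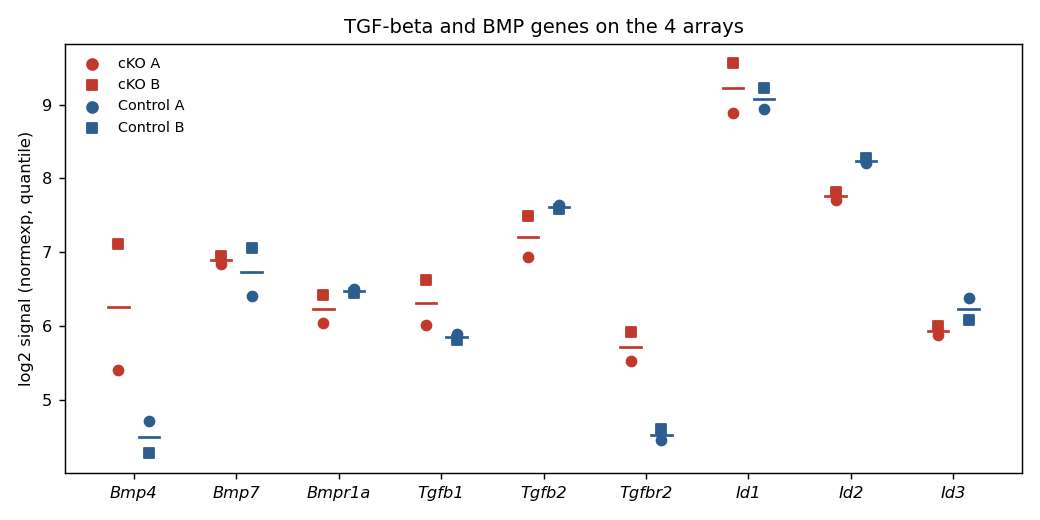
Log2 signal after background correction and quantile normalization (y axis) of the 9 tested members on the 4 arrays, cKO in red and Control in blue, circles for replicate A and squares for replicate B, with lines at the group means. Tgfbr2 and Bmp4 have all cKO symbols above the Control symbols, with 5.40 and 7.11 for Bmp4, and Id2 has them below.

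The Id genes encode helix-loop-helix proteins that bind bHLH transcription factors and keep them from DNA, and they are direct targets of BMP signalling in many cell types. Id1 was detected on every array, with log2 signals of 8.89 and 9.56 in cKO lenses against 8.94 and 9.22 in Control lenses. The cKO lenses spanned the Control lenses, and the log2 fold change was 0.15 ± 0.23 (SE). Id2 had log2 signals of 7.71 and 7.82 against 8.20 and 8.27. Both cKO lenses were lower, and the replicates of each group lay close together, with an SD of 0.08 in cKO and 0.05 in Control. The log2 fold change was -0.47 ± 0.14 (SE) with a 95% confidence interval of -0.80 to -0.15 and an adjusted p = 0.0648 by limma, so that it reached neither the p nor the fold threshold. Before normalization the same Id2 probe read 301 and 342 in cKO lenses against 278 and 230 in Control lenses, so that its cKO signals were then the higher ones. The second Id2 probe was above background on cKO A alone and was not retained, and its log2 signals were 4.61 and 4.46 against 4.37 and 4.40, slightly higher in cKO lenses. With no detection filter, which averages it in, the Id2 log2 fold change was -0.16. A further probe that the files name Idb2, an older symbol of Id2, lay outside the rule. Its log2 signals were 7.44 and 7.54 against 8.40 and 7.71, a log2 fold change of -0.56 ± 0.23 (SE) with an adjusted p = 0.145 by limma. Id3 had log2 signals of 5.87 and 6.00 against 6.38 and 6.08, with the cKO lenses again below. The log2 fold change was -0.29 ± 0.16 (SE) with an adjusted p = 0.252 by limma.

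Smad7 encodes an inhibitory SMAD that blocks the receptors and is itself induced by TGF-beta. Its 1 probe had unnormalized signals of 41.3 and 39.6 in cKO lenses and 39.8 and 35.5 in Control lenses, with detection p-values from 0.753 to 0.947. It was not well above background on any array, and no difference could be measured.

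These counts cover the members that passed the detection filter, Bmp4 and Tgfbr2 through the cKO arrays alone, and are a description. In all, 1 of the 9 tested members was called (11.1%), which is near the 11.6% of all genes. The groups did not overlap for 7 of the 9, against 62.3% of all genes. The cKO lenses were higher for 3 of these, Bmp4, Tgfb1 and Tgfbr2 (32.6% of all genes), and lower for 4, Bmpr1a, Tgfb2, Id2 and Id3 (29.7%). Log2 fold changes were above 0 for 5 of the 9 and for 51.1% of all genes. The median log2 fold change of the members was 0.15, also with Bmp4 and Tgfbr2 at their bounds, against 0.01 for all genes. Directions of the smaller differences depend on how the arrays were scaled. With arrays set to the same median, or not normalized, the median of all genes shifted to 0.53 and 0.57 on the log2 scale, and Bmpr1a, Tgfb2, Id2 and Id3 turned positive. Relative to the median of all genes, these 4 were lower and the other 5 tested members higher under each of 8 other background corrections and scalings, of which 3, the pair of same-median scalings and no normalization, shift all genes alike and so give a single result here. Tgfbr2 was called under 7 of the 8, at a log2 fold change from 0.62 to 1.55, and Bmp4 under 2, at 1.02 to 2.13 over the same 7. With the deposited normalized table, values under 1 set to 1, neither was called, at 1.95 for Tgfbr2 (adjusted p = 0.0771 by limma) and 3.87 for Bmp4 (0.171).

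**Figure D3:**
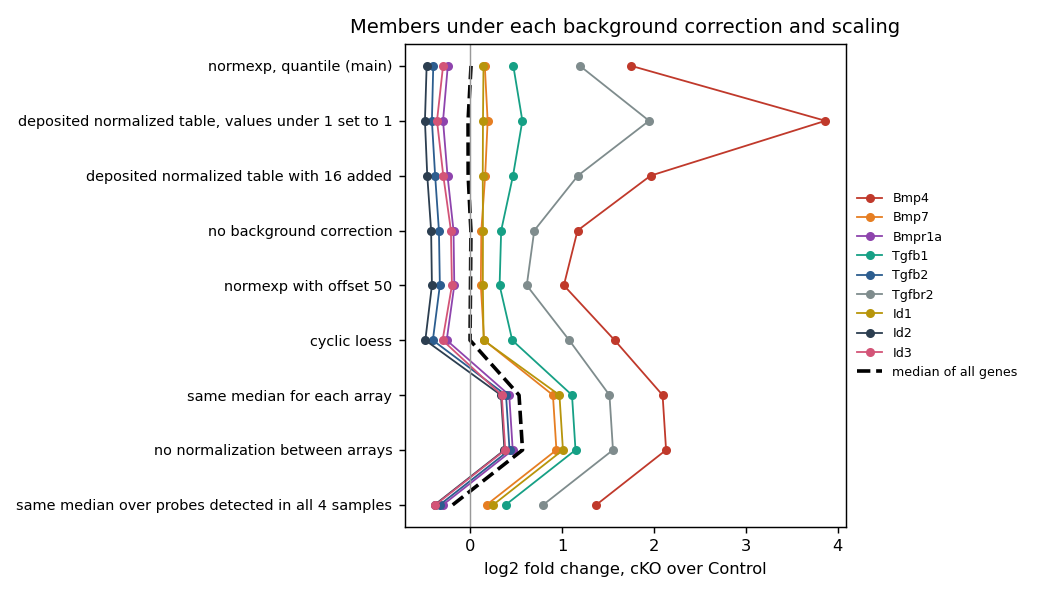
Log2 fold change of the 9 tested members, cKO over Control (x axis), under 9 ways of background correction and scaling (rows), with the median of all genes as a dashed line. The lines of Bmpr1a, Tgfb2, Id2 and Id3 cross 0 where the arrays have the same median or are not normalized, where the dashed line lies at 0.53 and 0.57, and those of Tgfbr2 and Bmp4 stay above 0.

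Of 65 further genes of the same pathways, 62 were on the array, 40 could be tested and 7 were called (17.5%, against 11.6% of all genes), 4 elevated (6.01% of all genes were) and 3 reduced (5.64% of all genes were). Of the 4 elevated genes, Gdf15, Tgfbi and Fn1 entered the test through the cKO arrays alone. Among the ligands, Inhba, the activin A subunit, had log2 signals of 6.61 and 5.76 in cKO lenses against 7.30 and 7.25 in Control lenses and was reduced. The difference was -1.09 ± 0.26 (SE) on the log2 scale (adjusted p = 0.0429 by limma). Gdf15, a divergent member of the ligand family induced by cell stress, was detected on the cKO arrays alone, with log2 signals of 6.08 and 6.71 against 4.49 and 4.44. Its cKO signal was at least 3.15-fold higher (adjusted p = 0.00567 by limma). Among 7 tested receptors, Acvr1b, an activin type I receptor, was reduced from log2 signals of 6.09 and 6.00 in Control lenses to 5.28 and 5.36 in cKO lenses, a difference of -0.73 ± 0.14 (SE, adjusted p = 0.0223 by limma). Tgfbr1, which pairs with TGFBR2, had a log2 fold change of 0.09 ± 0.14 (SE) and overlapping groups. With 1 lens left out, Inhba was called only without cKO A and Acvr1b only without Control A, with adjusted p-values by limma of 0.0952 to 0.171 and 0.0696 to 0.14 otherwise.

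Smad1, which carries the BMP signal to the nucleus, was reduced. Its log2 signals were 5.64 and 5.77 in cKO lenses and 6.79 and 6.95 in Control lenses. The lenses of each group lay together and the groups were well apart, and the difference was -1.17 ± 0.14 on the log2 scale (SE, adjusted p = 0.00773 by limma). All 7 tested genes among the Smads and the TAK1 branch had negative log2 fold changes, where 51.1% of all genes were above 0. Smad1 was the 1 called reduced (5.64% of all genes were). When arrays were set to the same median or left unnormalized, the values of the 6 others turned positive and Smad1 was no longer called. Over 7 other corrections and scalings the Smad1 value ranged from -1.25 to -0.49, and it was called under 5. Bmper, a secreted BMP-binding protein that can oppose BMP signalling, was elevated, with log2 signals of 9.48 and 9.70 against 8.36 and 8.21 and a difference of 1.31 ± 0.15 (SE, adjusted p = 0.00621 by limma). Without Control B, Smad1 narrowly missed the threshold (adjusted p = 0.0501 by limma), and Bmper was called with any 1 lens left out. Smad6, the inhibitory SMAD of the BMP branch, had -0.28 ± 0.14 (SE) and was not called.

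Among 8 tested targets, 2 were elevated (6.01% of all genes were), both matrix proteins and both detected on the cKO arrays alone. Of all genes detected on both cKO arrays and on no Control array, 13% were elevated. Tgfbi, a secreted protein named for its induction by TGF-beta, had log2 signals of 5.82 and 6.66 against 4.32 and 4.44 and an elevated cKO signal, at least 2.83-fold higher (adjusted p = 0.0111 by limma). Fn1, which encodes fibronectin, had log2 signals of 5.04 and 5.14 against 4.37 and 4.27 and was at least 1.27-fold higher (adjusted p = 0.0199 by limma). Neither was called without Control B (adjusted p = 0.062 and 0.0713 by limma), or tested without either cKO lens. Other genes used as TGF-beta targets did not pass the test. Acta2, which encodes the smooth muscle actin of myofibroblasts, had log2 signals of 7.36 and 8.88 in cKO lenses, on either side of 8.11 and 8.07 in Control lenses. Its log2 fold change was 0.03 ± 0.43 (SE), and it ranged from -0.73 without cKO B to 0.79 without cKO A. Ccn2 had -0.19 ± 0.16 (SE), and Tagln was detected on no array. Over the 40 tested genes 17 had positive and 23 negative log2 fold changes, with a median of -0.10, also with the genes of unmeasured Control level at their bounds.

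**Figure D4:**
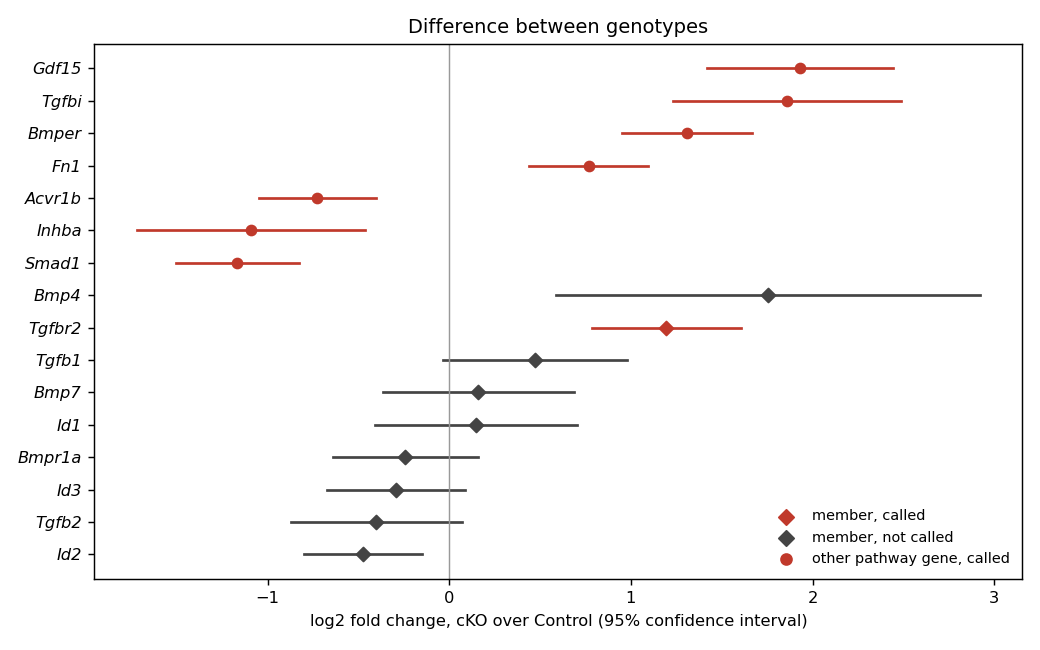
Log2 fold change, cKO over Control, with its 95% confidence interval (x axis) for the 9 tested members (diamonds) and the 7 called genes among the other pathway genes (circles), with called genes in red. Tgfbr2 is the only red diamond, at 1.20, and the Bmp4 interval is the widest of the members, from 0.59 to 2.92.

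The lens epithelium, the anterior cell layer that proliferates and supplies new fiber cells, is marked by genes of which 5 of 6 could be tested. All 5 had negative log2 fold changes, where 51.1% of all genes were above 0, and 2 were reduced (5.64% of all genes were), Foxe3 at -0.79 ± 0.14 (SE) and Sparc at -0.69 ± 0.14 (SE). Their summed signal was 1462 and 1555 in cKO lenses against 2423 and 2006 in Control lenses, while Gja1, at -0.22 ± 0.26 (SE), had overlapping groups. Of the 10 fiber markers, 6 had both cKO lenses below both Control lenses (29.7% of all genes did) and 2 were reduced, Birc7 at -1.45 ± 0.15 (SE) and Bfsp2 at -0.76 ± 0.14 (SE), and the summed signal of the 10 was 189644 and 184731 against 206891 and 210870. With arrays set to the same median or not normalized, the shift of all genes by 0.53 and 0.57 is larger than several of these differences. The part of either cell type in the values of Smad1, Id2 and the other members was not tested.

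The genes whose pattern was most like that of Tgfbr2 over the 4 arrays were a transcript named only scl0002824.1_16, Coprs and Gnpda2, each with a Pearson correlation above 0.99. With 4 arrays this is a weak description, since 280 genes (2.43% of those tested) had a correlation of 0.99 or more. Of the 3, Coprs was itself called, with a log2 fold change of 0.96 ± 0.16 (SE), and the others had values of 0.19 and 0.17.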

How the data were processed

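Lenses were profiled on 4 arrays, n = 2 per genotype, which limits the precision, and whether the lenses of a group came from separate litters is not given. The authors deposited unnormalized signal intensity and intensity normalized by the rank-invariant method (per the file headers, GSGX version 1.9.0), with bead standard errors and a detection p-value for each probe, deposited with both tables. The 18 lines with shifted cells, none detected on any array, were left out.

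Unnormalized intensity was corrected with normexp from the detection p-values (offset 16) and quantile normalized (neqc, limma version 3.58.1, R version 4.3.3). Probes with a detection p under 0.05 on at least 2 arrays were kept (16262), and each gene was given the mean log2 value over its probes. Groups were compared with lmFit and eBayes, two-sided, with Benjamini-Hochberg adjustment over 11517 genes. The thresholds follow the study, which used edgeR, a count model not applied to intensities here. An exact permutation test of 2 against 2 arrays cannot go below p = 0.333. The code was tested on simulated data. Genes were named through a RefSeq table of GRCm38.p6. Alternatives covered background, scaling, filter, probe choice, variance model, replicate block and leaving out each array. What the replicate letters stand for is not given, and the samples were not paired by them in the main fit. Deviations of same-lettered lenses correlated at -0.01 over all genes, which cannot show whether those lenses were paired.

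The members, the pathway list, the marker lists and the rule for named genes (all members, called pathway genes, the 3 genes most like the called member) were chosen with earlier results of these data known, rows of the study's own comparisons included, and give no independent support.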

Additional observations from a re-analysis of the deposited data

How the results depend on the processing

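The number of members called, 1 as reported, was 0 of 9 with the deposited normalized table (values under 1 set to 1), 0 of 10 with no detection filter and 0 of 7 with detection required in all 4 samples, where 3, 2 and 1 members had an unadjusted p under 0.05 by limma. It was 2 with the brightest probe of each gene and 2 with the replicate block, which both add Bmp4 (adjusted p = 0.0498 and 0.0114 by limma), and 5 with arrays set to the same median and 5 with no normalization, which add Bmp4, Bmp7, Tgfb1 and Id1. With 1 lens left out it ranged from 0 to 1. Tgfbr2 was called without Control A (adjusted p = 0.0333 by limma) but not without Control B (0.0559), and without either cKO lens neither Tgfbr2 nor Bmp4 could be tested, since each was then detected on 1 array. Tgfbr2 was not called with the deposited table (log2 fold change 1.95, adjusted p = 0.0771 by limma) or with no filter, which averages in its undetected probes (0.34, adjusted p = 0.0933).

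The 7 pathway genes called became 0 with the deposited table (14 at an unadjusted p under 0.05 by limma), 15 with the same median, 18 with no normalization and 1 with no filter, and 2 to 6 with 1 lens left out. Of these 7, Bmper was called in 4 of 4 such fits and Smad1 in 3, while Inhba and Acvr1b were each called in 1. Under 7 corrections and scalings other than that table's, Bmper, Gdf15 and Tgfbi were called in 7, Smad1 and Inhba in 5, Fn1 in 4 and Acvr1b in 3. The 1341 genes called became 7 with the deposited table, 789 with an offset of 50, 5417 with the same median (5273 elevated), 5788 with no normalization (5655 elevated), 2686 with the same median over detected probes (667 elevated, and a median of all genes of -0.19) and 207 with no filter, and 163 to 1364 with 1 lens left out, lowest without cKO B and 170 without Control B.

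With the same median, the log2 fold changes of Bmpr1a, Tgfb2, Id2 and Id3 were 0.43, 0.39, 0.34 and 0.34, and with no normalization 0.46, 0.43, 0.37 and 0.38, above 0 in place of below. Id1 had -0.19 without cKO B (range -0.19 to 0.48 with 1 lens left out), and Bmp7 had -0.16 without Control A (range -0.16 to 0.50). The cause of these changes was not tested. The replicate block changed no other member's call. Adding the Idb2 probe to Id2, an alternative chosen after seeing the data, gave -0.52 (adjusted p = 0.0753 by limma). Tgfbr2 and Bmp4 were not above background on either Control array, which limits both fold changes.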
